A study of Arabidopsis thaliana with 6 samples.

Results

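The chloroplast ATP synthase is encoded in part by 6 genes of the *Arabidopsis thaliana* chloroplast genome, which lie in 2 operons, *atpI*-*atpH*-*atpF*-*atpA* and *atpB*-*atpE*. The 6 mRNAs were chosen by gene name, and all 6 were among the 73 RNAs measured. The data come from DO-RIP-Seq, a form of RNA co-immunoprecipitation with an optimized nuclease digestion, in which RNA fragments bound by proteins are cross-linked with formaldehyde, trimmed by the nuclease and precipitated with an antibody. Wild-type (WT) Columbia-0 seedlings, 14 days old and grown at 21 °C under a long-day light regime, gave 3 pellets precipitated with an antibody against CP31A. Each pellet has an input, taken before washing from its own mix of extract and antibody-coated beads, so that there were 3 pairs of libraries with replicate numbers 1, 2 and 3, which the study calls biological replicates. The nuclease was added to the same mix and short fragments were sequenced, so the inputs also measure fragments and not intact mRNA. No mutant and no library with another antibody was analysed here, and formaldehyde also links proteins to each other, so a value does not separate direct from indirect association. The table holds chloroplast mRNAs only, and *psbA* and *rbcL*, the most abundant mRNAs of green tissue, ranked first and second in the inputs.

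The ATP synthase of the thylakoid membrane makes ATP from the flow of protons across that membrane. Its membrane part, CF0, holds subunit a (*atpI*), which forms the proton path, the ring of c subunits (*atpH*), which turns, and subunit b (*atpF*), which forms the outer stalk together with a nuclear-encoded subunit. Its catalytic head, CF1, holds the alpha subunit (*atpA*), the beta subunit with the catalytic sites (*atpB*), and the epsilon subunit of the central stalk (*atpE*), together with nuclear-encoded subunits. Chloroplast operons are transcribed into long precursors that are cut, spliced and trimmed, and RNA binding proteins take part in this. CP31A is a chloroplast ribonucleoprotein that binds many mRNAs. Earlier work cited by the study gives it a role in RNA editing and in mRNA stability. In maize, the PPR protein PPR10 is known to define RNA ends between *atpI* and *atpH*.

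Positions refer to the chloroplast sequence in RefSeq's TAIR10.1 assembly (154478 bp), the sequence the study names for its gene annotation. All 6 genes lie on the minus strand. In the direction of transcription, *atpI* runs from 14770 to 14021, *atpH* from 13507 to 13262, *atpF* from 12798 to 11529 and *atpA* from 11461 to 9938. *rpoC2* (a subunit of the plastid RNA polymerase) and *rps2* (a protein of the small ribosomal subunit) lie directly upstream of *atpI* on the same strand. *atpB* runs from 54156 to 52660 and *atpE* from 52663 to 52265, and *rbcL* lies beside *atpB* on the other strand. Only *atpF* has an intron, of 715 nt from 12653 to 11939, which takes up 48.6% of its counting window.

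A value is TPM, reads per length of a window that covers the gene, its intron and 100 nt on each side, with every library scaled to one total. Windows of neighbours can overlap, and how reads in an overlap were assigned is not given in the sources used here. The windows of *atpB* and *atpE* share 204 nt, which is 34.1% of the *atpE* window, and those of *atpF* and *atpA* share 133 nt, 7.71% of the *atpA* window. Those of *atpI*, *atpH* and *atpF* share none with each other. The boundaries that bear on these windows are given here 5′ to 3′ on the transcribed strand, as DNA. In the first, capitals mark the 4 bases that belong both to the end of *atpB* and to the start of *atpE* (52676 to 52647). In the following pair, they mark the first 5 and the last 2 bases of the *atpF* intron, whose reads were counted for *atpF* (12668 to 12639 and 11953 to 11924). The last 2 are the starts of the coding sequences of *atpI* (14770 to 14741) and *atpH* (13507 to 13478), the neighbours of these operons whose levels differed most in input 1, with the start codon in capitals.
atpB/atpE overlap: gtaaattgaagaaATGAccttaaatctttg
atpF exon 1/intron: ttggaaagggagtgtGTGTGagttgttcat
atpF intron/exon 2: ataatctactttcATtaaatgatttattag
atpI start: ATGaatgttttatcatgttccatcaacaca
atpH start: ATGaatccactggtttctgctgcttcggtt

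**Figure D1:**
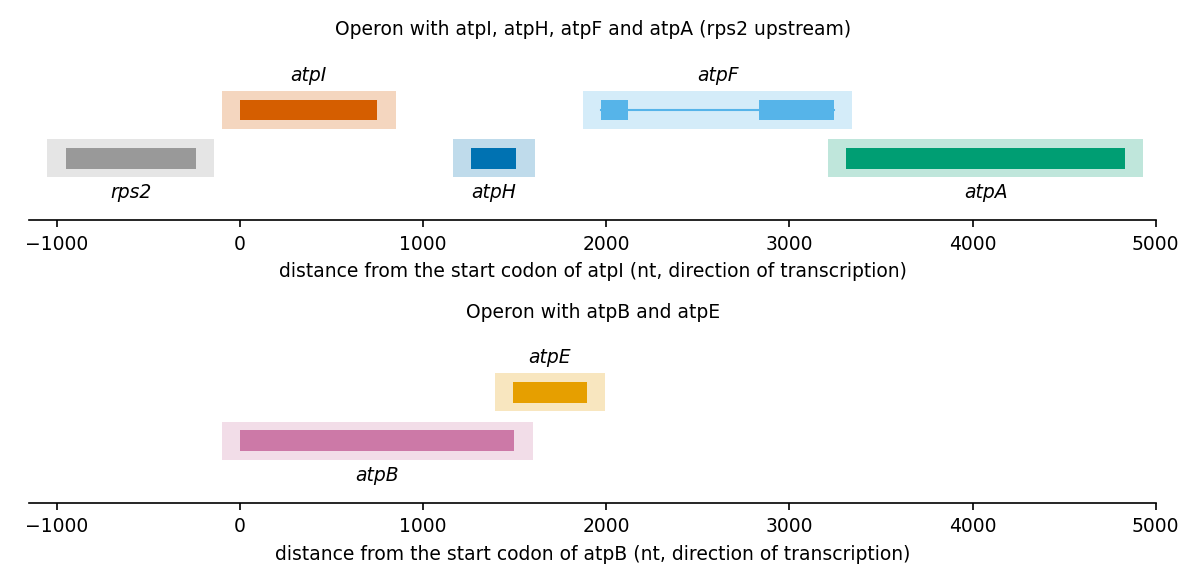
Map of the 2 operons, with the distance in nt from the start codon of the first ATP synthase gene on the x axis; dark bars are exons, the thin line is the *atpF* intron, pale boxes are the counting windows and *rps2* is grey. The windows of *atpB* and *atpE* overlap by 204 nt and those of *atpF* and *atpA* by 133 nt.

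Libraries differed in depth. Computed from TPM and window length, inputs 1, 2 and 3 held 24225, 67822 and 73526 reads and the pellets 251570, 336445 and 392286 reads. The 6 mRNAs together had 1115, 1520 and 1946 input reads and 9151, 13861 and 16727 pellet reads. Input 1 stood apart from the other inputs: 20 of the 73 RNAs lay there at least 2-fold from the mean of inputs 2 and 3, with log2 differences from -2.15 to 1.62, whereas pellet 1 lay within -0.55 and 0.66 of the other pellets. Results are therefore given with and without replicate 1. TPM is a share within a library of chloroplast mRNAs from whole seedlings, so it measures neither the RNA per cell nor the number of cells with chloroplasts.

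Levels in the inputs are those of short fragments after the nuclease, which need not follow the amounts of intact mRNA. They also include the flanks, and the *atpH* window has 446 nt for a gene of 246 nt. Among the 6, *atpH*, the mRNA for the c ring, had the highest input TPM. Its TPM was 26325, 10583 and 11305 in inputs 1, 2 and 3, with a mean of 16071 ± 8888 (SD, n = 3) and rank 8 of 73. *atpE* followed with 12481, 6659 and 10219 TPM, and *atpF* with 10171, 5829 and 6586 TPM. The order of these 3 held within each of the 3 inputs. *atpB* had 6749, 1858 and 2582 TPM, *atpA* 4031, 1859 and 2215 TPM, and *atpI* 908, 2988 and 2425 TPM. The order of these lower 3 was not stable: *atpI* was lowest of the 6 in input 1, at 0.225 times *atpA*, and lay above *atpA* in inputs 2 and 3, at 1.61 and 1.10 times its level. The alpha and beta mRNAs *atpA* and *atpB* stood at a ratio of 0.597, 1.00 and 0.858 in inputs 1, 2 and 3.

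Levels of neighbours within an operon differed in the inputs by more than their spread. The log2 TPM of neighbours was compared within each input with limma, over 52 pairs of genes that follow each other on a strand of the chloroplast genome, of which 69.2% differed at an adjusted p under 0.05 (Benjamini-Hochberg). All 4 pairs inside the operons were among them. *atpH* had 7.82 times the TPM of *atpI* (log2 difference of *atpI* from *atpH* -2.97 ± 1.65, SD, n = 3, adjusted p = 0.0050 from limma). It had 2.01 times that of *atpF* (log2 1.00 ± 0.32, SD, n = 3, adjusted p = 0.0101 from limma), though with 2 inputs left this difference, at a similar size, did not pass without replicate 2 (log2 1.08, adjusted p = 0.0545 from limma) or without replicate 3 (log2 1.12, adjusted p = 0.0639 from limma). The fits to 2 inputs used 1 variance for every pair of genes, so that p followed the size of the mean alone. *atpF* had 2.87 times the TPM of *atpA* and *atpE* had 2.97 times that of *atpB*. Without replicate 1 the log2 difference of *atpI* from *atpH* shrank to -2.02, and that of *atpH* from *atpF* was 0.82. The difference of *atpF* from *atpA* was then 1.61 and that of *atpB* from *atpE* was -1.91, so the directions held while the sizes moved. Within the 4-gene operon the level thus rose from the first to the second gene and fell over the third and the fourth, and within the 2-gene operon the second gene had the higher level.

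In the pellets the 6 levels lay close together between replicates. *atpI* had 4323, 4351 and 4632 TPM in pellets 1, 2 and 3, *atpH* 10452, 12087 and 12553, and *atpF* 9900, 10737 and 11267. *atpA* had 3582, 4552 and 4484 TPM, *atpB* 2616, 2759 and 2835, and *atpE* 11170, 12436 and 12738. The SD of log2 TPM over the 3 pellets ran from 0.06 (*atpI*) to 0.19 (*atpA*), against 0.42 (*atpF*) to 0.97 (*atpB*) over the 3 inputs. Over all 73 RNAs the median SD was 0.09 in the pellets and 0.41 in the inputs, so that the 6 mRNAs were as close as others in the pellets (median 0.10) and had a larger median spread in the inputs (0.66). *atpE* and *atpH* had the highest pellet means, 12115 ± 832 and 11698 ± 1103 TPM (SD, n = 3), and *atpE* lay slightly above *atpH* in each of the 3 pellets, by a ratio of *atpH* to *atpE* of 0.936, 0.972 and 0.986. *atpB* was the lowest of the 6 in each pellet.

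**Figure D2:**
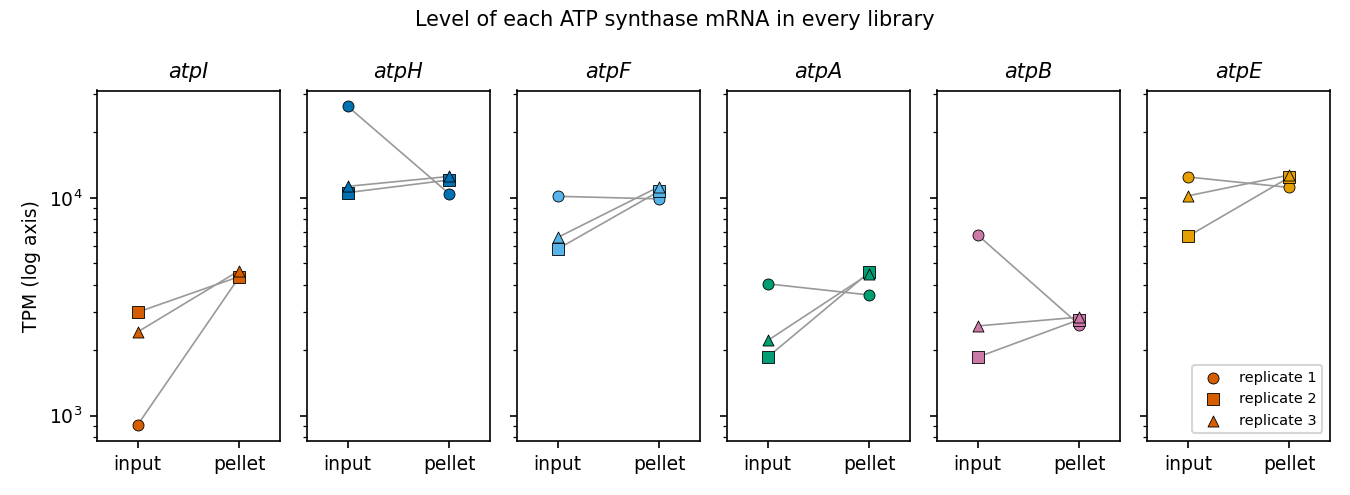
TPM on a log axis for each ATP synthase mRNA in the 3 inputs and the 3 pellets; symbols are replicates, and grey lines join the input and pellet of a pair. Only for *atpI* do all inputs lie below all pellets; the input of replicate 1 is the lowest for *atpI* (908 TPM) and the highest for the other 5.

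In input 1, *atpI* differed from the other inputs in the opposite direction from the other 5 mRNAs. In input 1 *atpI* lay below the mean of inputs 2 and 3 by a log2 difference of -1.57, and only 2 of the 73 RNAs lay lower. *atpB* lay above it by 1.62, the highest of the 73, *atpH* by 1.27, *atpA* by 0.99, *atpF* by 0.72 and *atpE* by 0.60. For *atpI* the counting error was smaller than the difference: it had 18, 163 and 143 reads in inputs 1, 2 and 3, and the 95% exact Poisson interval of the 18 reads runs from 10.7 to 28.4, or 538 to 1435 TPM. *atpB* had 239, 181 and 272 reads in the inputs, so that it had more reads in input 1 than in the deeper input 2. In pellet 1 the 6 mRNAs lay between -0.33 (*atpA*) and -0.05 (*atpI*) of the mean of pellets 2 and 3. Input 1 was also the library with the fewest reads, and the part of depth in these differences was not tested.

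Enrichment was taken as log2 of the ratio of pellet TPM to the TPM of its own input. A two-sided limma fit, blocked on the replicate number, tested it, and p was adjusted over 73 RNAs. The intervals and p of limma use an error that draws on the spread of all RNAs, not the SD printed beside them. Of the 6 mRNAs, *atpI* was enriched in the pellet and 5 did not reach an adjusted p under 0.05, *atpA* among them with an unadjusted p of 0.0467 from limma. Among all 73 RNAs, 50.7% passed, 49.3% as enriched and 1.37% as depleted, and 34.2% were enriched at least 2-fold, so the count of 1 in 6 stands against 36 in 73. The median log2 enrichment was 0.45 for the 6 mRNAs and 0.71 for all 73 RNAs. Without replicate 1 the medians were 0.67 and 0.73, and the gap was widest in the pair of replicate 1, at -0.17 against 0.58.

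*atpI*, for subunit a, had log2 enrichments of 2.25, 0.54 and 0.93 in the pairs of replicates 1, 2 and 3. Its mean of 1.24 ± 0.90 (SD, n = 3 pairs, 95% interval 0.49 to 2.00, adjusted p = 0.0118 from limma) is a 2.37-fold enrichment and rank 16 of 73. It was the only one of the 6 whose inputs and pellets did not overlap, which was so for 67.1% of the 73 RNAs. The size of the enrichment rested on replicate 1, where its rank was 5, against 47 and 25 in the pairs of replicates 2 and 3. Without replicate 1 it was 0.74, below 2-fold and at rank 36, with the median of all 73 RNAs at 0.73. The enrichment still passed in that fit, where 79.5% of the 73 RNAs were called enriched and 1 variance was used for every RNA. The counting error of a pair was 0.34, 0.12 and 0.13 on the log2 scale, less than the gap of the pair of replicate 1 to the others.

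*atpA*, for the alpha subunit, had log2 enrichments of -0.17, 1.29 and 1.02 in the 3 pairs, and on average 0.71 ± 0.78 (SD, n = 3 pairs, adjusted p = 0.0793 from limma), as much as the median of the 73 RNAs. In the pairs of replicates 2 and 3 it was the highest of the 6, at ranks 11 and 14, and without replicate 1 its mean was 1.15. *atpF*, for subunit b, had -0.04, 0.88 and 0.77, and on average 0.54 ± 0.50 (SD, n = 3 pairs, 95% interval -0.05 to 1.13, adjusted p = 0.110 from limma). *atpE*, for the epsilon subunit, had -0.16, 0.90 and 0.32, and on average 0.35 ± 0.53 (SD, n = 3 pairs, 95% interval -0.25 to 0.95, adjusted p = 0.283 from limma). All 3 lay just below 0 in the pair of replicate 1 and above 0 in the other pairs.

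*atpB* and *atpH* had the lowest values of the 6. *atpB*, for the beta subunit, had log2 enrichments of -1.37, 0.57 and 0.13 in the 3 pairs, and on average -0.22 ± 1.02 (SD, n = 3 pairs, 95% interval -1.04 to 0.60, adjusted p = 0.631 from limma) and rank 66. *atpH*, for the c ring, had -1.33, 0.19 and 0.15, and on average -0.33 ± 0.87 (SD, n = 3 pairs, 95% interval -1.07 to 0.41, adjusted p = 0.432 from limma) and rank 68. In the pair of replicate 1 they took the last 2 ranks, 73 and 72. Without replicate 1 both means turned positive, 0.35 for *atpB*, which then passed (adjusted p = 0.0153 from limma), and 0.17 for *atpH*, which did not (adjusted p = 0.227 from limma).

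**Figure D3:**
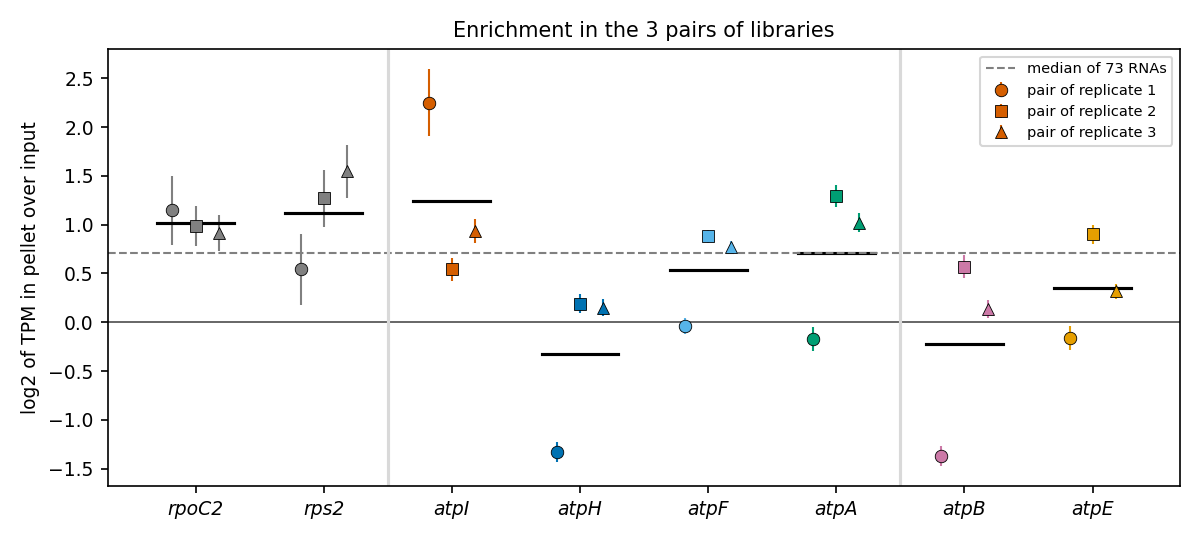
Log2 of TPM in the pellet over the input for *rpoC2*, *rps2* and the 6 ATP synthase mRNAs; symbols are the pairs of replicates 1, 2 and 3 with their counting error (1 SE), black bars are means and the dashed line is the median of 73 RNAs (0.71). The pair of replicate 1 is the highest for *atpI* (2.25) and the lowest for the other 5 ATP synthase mRNAs.

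Without replicate 1, 5 of the 6 mRNAs passed and were higher in the pellet, all but *atpH*, against 79.5% of the 73 RNAs. In that fit p followed the size of the mean, since 1 variance was used for every RNA, so that these calls do not measure agreement of the pairs that remain. The calls also depend on how the libraries are scaled to each other. With library medians set to 0, every RNA moved on average by -0.83 on the log2 scale, and 4 RNAs were enriched and 9 depleted instead of 36 and 1. *atpI* then had 0.41 without passing (adjusted p = 0.362 from limma), *atpH* was depleted at -1.16 (adjusted p = 0.0454 from limma), and *atpF*, *atpA* and *atpE* lay below 0. Scaled to the total without *psbA*, *rbcL* and *psbC*, *atpI* had 0.76, again without passing (adjusted p = 0.241 from limma).

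**Figure D4:**
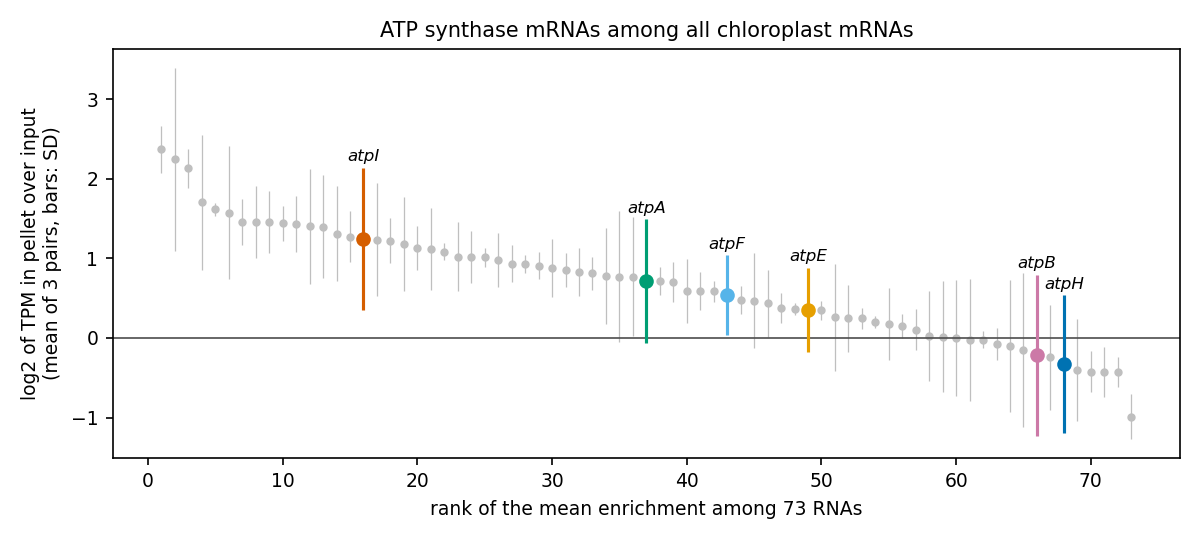
Mean log2 enrichment of the 73 RNAs in order of rank, with the SD over 3 pairs as bars; the ATP synthase mRNAs are coloured. They run from rank 16 (*atpI*) to rank 68 (*atpH*), with *atpA* at 37, *atpF* at 43, *atpE* at 49 and *atpB* at 66.

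Differences between members can be read within a library, where scaling drops out. The difference in enrichment between neighbours was tested with limma over the 52 pairs of neighbouring genes, of which 3.85% passed (48.1% without replicate 1). These were *matK* with *psbA* and *atpE* with *ndhC*, neither of them inside an operon of the ATP synthase. The enrichment of *atpE* lay below that of *ndhC*, the next measured gene on the strand and a subunit of the NDH complex, by a log2 difference of -1.78 (adjusted p = 0.0120 from limma). *ndhC* had 13, 30 and 36 reads in inputs 1, 2 and 3, and no neighbour pair passed without replicate 3. The 4 pairs inside the operons did not pass after adjustment, and 2 of them, *atpI* with *atpH* and *atpH* with *atpF*, had an unadjusted p under 0.05.

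*atpI* lay above *atpH* in 3 of 3 pairs of libraries, with log2 differences of 3.58, 0.35 and 0.78 and a mean of 1.57 ± 1.76 (SD, n = 3 pairs, 95% interval 0.03 to 3.11, adjusted p = 0.135 from limma). In levels, *atpH* had 29.0, 3.54 and 4.66 times the TPM of *atpI* in inputs 1, 2 and 3. In pellets 1, 2 and 3 it had 2.42, 2.78 and 2.71 times. The ratio was thus lower in each pellet than in each input. The difference was 0.57 without replicate 1 (adjusted p = 0.00803 from limma) and 2.18 without replicate 2 (adjusted p = 0.00443 from limma), and it passed in both of these fits. They used 1 variance for every pair of genes, so that p followed the size of the mean alone.

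*atpH* lay below *atpF* in 3 of 3 pairs as well, by -1.29, -0.69 and -0.62 and on average -0.87 ± 0.37 (SD, n = 3 pairs, 95% interval -1.49 to -0.25, adjusted p = 0.0831 from limma). This pair of mRNAs passed in the fit without the replicate block (adjusted p = 0.0257 from limma) and without replicate 1 (-0.66, adjusted p = 0.00291 from limma). *atpF* and *atpA*, whose windows overlap, differed by -0.17 ± 0.28 (SD, n = 3 pairs, 95% interval -0.77 to 0.42). *atpB* lay below *atpE* in 3 of 3 pairs, by -1.21, -0.33 and -0.18 and on average -0.57 ± 0.55 (SD, n = 3 pairs, 95% interval -1.28 to 0.14, adjusted p = 0.215 from limma), and without replicate 1 the mean was -0.26. *rps2*, upstream of *atpI*, was enriched itself (1.12 ± 0.52, SD, n = 3 pairs, adjusted p = 0.00726 from limma), as was *rpoC2* (1.01 ± 0.12, SD, n = 3 pairs). Neither passed without replicate 3 (adjusted p = 0.107 for *rps2* and 0.0609 for *rpoC2* from limma) or under either of the other scalings (0.412 and 0.539 with medians at 0, 0.111 and 0.160 rescaled). The difference of *rps2* from *atpI* changed sign between pairs, with -1.71, 0.73 and 0.61. *rbcL*, the gene beside *atpB* on the other strand and the mRNA of the large Rubisco subunit, had log2 enrichments of -0.59, -0.22 and -0.47 and did not reach the threshold (adjusted p = 0.139 from limma).

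Among all 15 pairs of the 6 mRNAs, 7 had a difference in enrichment of the same sign in 3 of 3 pairs of libraries (46.7%), against 66.9% of the 2628 pairs of all RNAs. The difference with the smallest spread was that of *atpH* from *atpA*, members of the same operon, at -1.16, -1.10 and -0.87 with a mean of -1.04 ± 0.16 (SD, n = 3 pairs). *atpH* had 6.53, 5.69 and 5.11 times the TPM of *atpA* in inputs 1, 2 and 3, while the pellets gave 2.92, 2.66 and 2.80 times. Across the operons, *atpA* for the alpha subunit lay above *atpB* for the beta subunit in 3 of 3 pairs, by 1.20, 0.72 and 0.88 with a mean of 0.93 ± 0.24 (SD, n = 3 pairs). Their ratio was 1.37, 1.65 and 1.58 in the pellets, above that of each input. Pairs with *atpI* had the largest spreads, up to 1.91 for *atpI* and *atpB*. The differences between mRNAs that are not neighbours were picked after their values were seen and were not tested.

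Between the operons, the mean log2 enrichment was 0.18, 0.73 and 0.72 for the 4 genes of the *atpI* operon and -0.76, 0.74 and 0.23 for *atpB* and *atpE* in the 3 pairs. The difference of the 2 operons was 0.94, -0.01 and 0.49, with a mean of 0.47 ± 0.48 (SD, n = 3 pairs), no larger than its spread, and 0.24 without replicate 1. Left without *atpI*, the *atpI* operon stood above *atpB* and *atpE* by 0.24 ± 0.18 (SD, n = 3 pairs). By the part of the enzyme, the means were 0.48 ± 0.17 for the 3 CF0 mRNAs and 0.28 ± 0.77 for the 3 CF1 mRNAs (SD, n = 3 pairs). The 3 pairs gave 0.29, 0.54 and 0.62 for CF0 and -0.57, 0.92 and 0.49 for CF1. In the pair of replicate 1 the CF0 value averaged *atpI* at 2.25, *atpF* at -0.04 and *atpH* at -1.33. The smaller SD of CF0 therefore does not mean that its mRNAs were alike.

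The shares of *atpI*, *atpH* and *atpF* in the TPM of their operon, and those of *atpB* and *atpE*, varied less between pellets than between inputs, while that of *atpA* varied slightly more. *atpI* made up 2.19%, 14.1% and 10.8% of the TPM of its operon in inputs 1, 2 and 3, and the pellets gave 15.3%, 13.7% and 14.1%. *atpH* made up 63.5%, 49.8% and 50.2% of the inputs' operon TPM but only 37.0%, 38.1% and 38.1% of the pellets'. *atpF* went from 27.1% ± 2.36 to 34.4% ± 0.611 and *atpA* from 9.43% ± 0.599 to 13.5% ± 0.837 (SD, n = 3). For *atpH*, *atpF* and *atpA*, inputs and pellets did not overlap in this share. *atpB* made up 35.1%, 21.8% and 20.2% of the TPM of the *atpB*-*atpE* operon in the inputs, above each pellet, where it made up 19.0%, 18.2% and 18.2%. All 6 mRNAs together took 6.07%, 2.98% and 3.53% of an input and 4.20%, 4.69% and 4.85% of a pellet, so that the inputs fell on both sides of the pellets. Of the total without *psbA*, *rbcL* and *psbC* they took 11.1% ± 2.64 of an input and 8.95% ± 0.229 of a pellet (SD, n = 3).

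**Figure D5:**
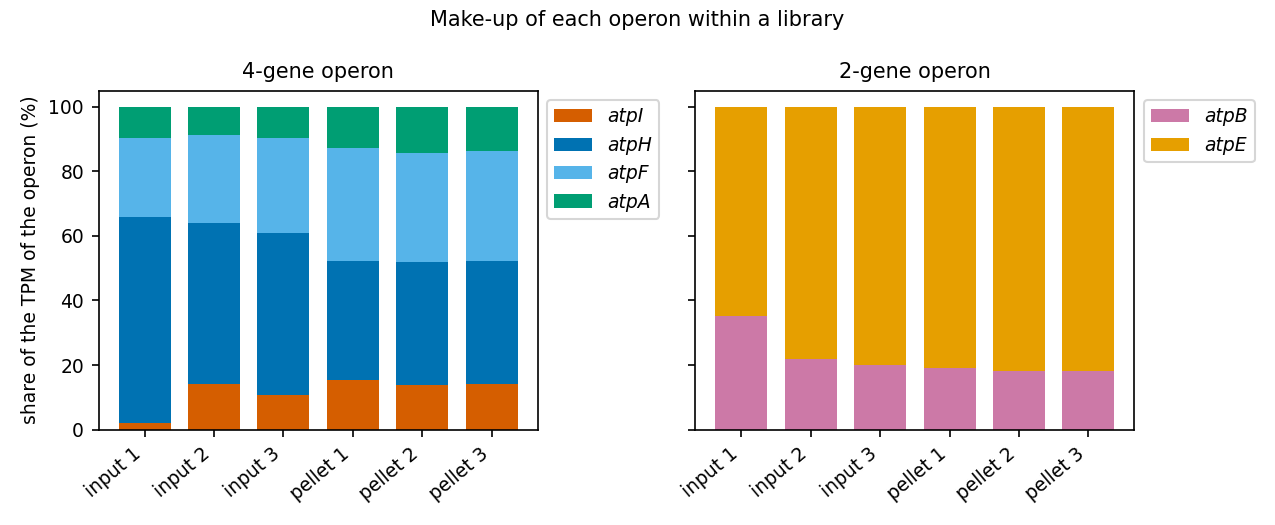
Share of each mRNA in the TPM of its operon (%) in every library, for the 4-gene operon on the left and the 2-gene operon on the right. In the pellets *atpH* holds 37.0% to 38.1% of its operon, below its 49.8% to 63.5% of the inputs.

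Across the 6 libraries the profile of *atpI* lay far from those of the other 5 ATP synthase mRNAs, each of which lay close to another of the 5. Likeness was measured as the root mean square difference of log2 TPM, each RNA set to its own mean over the 6 libraries. The RNAs nearest to *atpI* were *ccsA* (cytochrome *c* maturation), at 0.14 with a log2 enrichment of 1.24, and *cemA* (an envelope membrane protein), at 0.14 with 1.18. The nearest of the other ATP synthase mRNAs was *atpF* at 0.85, and 49 of the 67 RNAs outside the ATP synthase were nearer to *atpI* than that. For *atpF* the nearest were *petB* (0.06) and *petD* (0.12), for subunits of the cytochrome *b*6*f* complex. *atpA* was nearest to *rps12* (0.11), *atpE* to *psaC* (0.15), *atpH* to *psbD* (0.13) and *rpl22* (0.14), and *atpB* to *rpl2* (0.12) and *rpl16* (0.17). Among RNAs outside the ATP synthase, *petB* was the second nearest to both *atpA* (0.18) and *atpE* (0.17). For these 5 mRNAs another member lay close as well, at 0.14 to 0.18, with 5 outside RNAs nearer for *atpH*, 3 for *atpF*, 2 for *atpB* and 1 each for *atpA* and *atpE*. All these profiles include input 1, where *atpI*, with 18 reads, differed from the mean of inputs 2 and 3 by -1.57 on the log2 scale. The other 5 lay above that mean there, by 0.60 (*atpE*) to 1.62 (*atpB*). The likeness is a description.

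Other mRNAs of the light reactions gave a background for the 6, with 49.3% of all 73 RNAs enriched. Of 6 *pet* mRNAs (cytochrome *b*6*f* complex) 3 were enriched, of 13 *psb* mRNAs (photosystem II) 5 and of 5 *psa* mRNAs (photosystem I) 1, with median log2 enrichments of 0.72, 0.43 and 0.38. All 11 *ndh* mRNAs (NDH complex) were enriched, with a median of 1.57, and their lowest value (1.27) lay above that of *atpI*. Outside the light reactions, 5 of 10 *rps*, 1 of 7 *rpl* and 3 of 4 *rpo* mRNAs were enriched. None of these lists held a depleted RNA. The median of 0.45 of the *atp* mRNAs lay nearest to that of the *psb* mRNAs. This order rested on replicate 1: without it the medians were 0.67 for *atp*, 0.76 for *pet*, 0.47 for *psa* and 0.44 for *psb*, with 5 of 6, 6 of 6, 3 of 5 and 8 of 13 enriched. Of the 7 *rpl* mRNAs, 6 passed in that fit, where 79.5% of all 73 RNAs were enriched.

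The base composition of the windows was within the range of the other genes. GC content was 40.7% for *atpB*, 38.6% for *atpH*, 38.4% for *atpA*, 37.1% for *atpE*, 34.9% for *atpI* and 31.1% for *atpF*, against 25.9% to 42.8% with a median of 33.9% over the 73 windows. The U content was 36.8% for *atpH*, 35.6% for *atpI* and 32.4% for *atpF*. It was 29.9% for *atpA*, 28.9% for *atpB* and 25.7% for *atpE*, with a median of 32.9% over the 73 windows. A link of base composition with enrichment was not tested.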

How the data were processed

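Per the methods and processing notes, Trim Galore 0.6.4 trimmed the reads and UMI-tools 0.5.4 removed duplicates by molecular identifier. STAR 2.5.3 gave the alignments (TAIR10) and featureCounts the reads per gene on the coding strand, introns and 100 nt on each side included. Low-count genes were dropped, and the authors deposited TPM per library for 77 gene entries, with column sums of 996097 to 998550. The deposited log2 values differ from log2 of TPM by at most 3.55e-15. The 2 columns of the authors' comparison (mean enrichment, p-value) were not used.

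Copies in the inverted repeat (*ndhB*, *rps7*, *ycf2*, *rpl2*) were averaged, giving 73 RNAs. TPM times the annotated window and a factor per library gave whole reads for 76 of 77 entries (tolerance 0.0001); these are the smallest numbers that match. Intervals on reads cover counting error only.

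log2 TPM, without a pseudocount, was fitted with limma 3.58.1 (lmFit, eBayes) in R 4.3.3 with the replicate number as a block, since each pellet and its input share an extract; deviations from the group means correlated within numbers at 0.17, 0.30 and -0.03. A call is an adjusted p under 0.05. Windows were read from the RefSeq TAIR10.1 annotation. Python 3.11.15 was used otherwise. The fit was also run on simulated data with the same spread for every RNA and library and no outlying input, so that run does not bear on the part of input 1. Alternatives were the block, each replicate, pseudocounts of 1 and 100 TPM, a minimum mean TPM of 1000, a variance trend, 2 scalings, unmerged copies and the methods' paired t-test; weights from reads and non-overlapping windows were added after the data were seen. The members and lists were chosen with earlier results of these data known. Named are the 6 members, *rps2*, *rpoC2* and *rbcL* beside them, and for each member the 2 other RNAs of nearest profile; *psbA*, *psbC*, *matK* and *ndhC* were added with their values known.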

Additional observations from a re-analysis of the deposited data

How the results depend on the processing

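Input 1, with the fewest reads, and the scaling of the libraries limit these results most; 18 reads of *atpI* there carry the largest counting error of the 6 mRNAs. With each replicate left out in turn, 21 to 62 RNAs passed (21 to 58 of them higher in the pellet), 1 to 5 of the 6 ATP synthase mRNAs were enriched, *atpH* ran from -0.59 to 0.17 and *atpB* from -0.62 to 0.35; 0 to 25 neighbour pairs differed in enrichment (13 at an unadjusted p under 0.05 in limma where the count was 0), 0 to 2 of them inside the operons, *rps2* minus *atpI* ran from -0.55 to 0.67 and *rpoC2* minus *rps2* from -0.46 to 0.16. With library medians set to 0, 13 RNAs passed, 4 of them higher in the pellet, and 0 of the 6 mRNAs were enriched by limma (0 also at an unadjusted p under 0.05), with *atpF* at -0.29, *atpA* at -0.12 and *atpE* at -0.48. Rescaled without the 3 most abundant RNAs, 8 passed, 5 of them higher, again 0 of the 6 (0 unadjusted), with *atpE* at -0.13. The methods' paired t-test passed 20 RNAs after adjustment and 0 of the 6 mRNAs (0 unadjusted), where limma passed *atpI*, and *rps2* lost its call (adjusted p = 0.0696). With a mean TPM of at least 1000, 2 of the 6 passed, *atpI* and *atpA* (adjusted p = 0.0432 from limma), against 29 of 58 RNAs. That fit used 1 variance for every RNA, so that p followed the size of the mean alone. Without the replicate block, 11 neighbour pairs passed in place of 2, 1 of them inside an operon (*atpH* with *atpF*), and *atpI* stayed enriched (adjusted p = 0.0340 from limma); with a pseudocount of 100 TPM, 4 pairs passed. The share of the 6 mRNAs without the 3 most abundant RNAs was 11.1% in the inputs and 8.95% in the pellets. The cause was not tested. Of 84 values of the 6 mRNAs under 14 alternatives, 69 kept their direction and side of the threshold.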
